A study of Mus musculus with 8 samples.

Results

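The collagen chain genes of the mouse were described here in whole liver RNA. They were taken as every row of the deposited gene table whose symbol is Col, a number, the letter a and a number, which gave 43 of 33467 genes. By structural class they comprised 11 fibrillar chains, 6 basement membrane chains of type IV, 6 beaded filament chains of type VI, 8 fibril-associated (FACIT) chains, 4 transmembrane chains and 8 others. All 8 animals were wild-type C57BL/6J mice kept free of specific pathogens, and all carried the label batch 1. The 4 controls ate standard diet for 4 weeks. The other 4 mice ate food holding 1% DDC (3,5-diethoxycarbonyl-1,4-dihydrocollidine) for as long. DDC blocks heme synthesis in hepatocytes and is used as a model of bile duct injury with scarring around the ducts. The labels call the samples biological replicates and give no age or sex. The comparison asked which collagen chains differed between livers of DDC-fed and control mice.

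Collagens are matrix proteins whose chains wind around each other into a helix, and each type is built from its own chains. Type I and III fibrils carry tensile load in portal tracts and scars, with type V inside them. Type IV forms the sheet beneath ducts, vessels and other epithelia, type VI forms fine beaded filaments at cell surfaces, and FACIT chains sit on fibrils. In liver, stellate cells and portal fibroblasts are the known main sources of fibrillar collagen, and hepatocytes make type XVIII, the precursor of endostatin.

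Library totals were 61179103 to 64768950 counts in controls and 63312756 to 81664058 in DDC mice. Values below are TMM-scaled CPM, a count relative to its scaled library total. FPKM divides by gene length and by the library total without TMM scaling, and is named where it is used. The size of a difference between groups therefore depends on which of these scales is used. Of the 43 genes, 37 passed the filter on low counts and were tested. Of these 37, 31 exceeded the filter's cut-off in all 4 controls, and the other 6 (Col2a1, Col4a6, Col6a4, Col8a2, Col23a1 and Col28a1) did not. Col25a1 exceeded it in all controls and not in all DDC mice. Genes that pass the filter through 1 group only are partly selected for being high in that group. The counts of called genes below therefore describe the genes that passed and support nothing more. Marker genes of several cell types differed between the groups as well. Summed hepatocyte markers lay at 148775 to 176425 CPM in controls and 66639 to 81523 CPM in DDC mice, with 10 of 10 markers lower. Cholangiocyte markers lay at 74.3 to 231 against 765 to 1189 CPM (9 of 12 higher), macrophage markers at 329 to 416 against 2080 to 2273 CPM (12 of 12), and portal fibroblast and mesothelial markers at 44.5 to 57.5 against 83.7 to 103 CPM (10 of 17). Stellate cell markers overlapped, at 582 to 696 against 632 to 660 CPM, with 4 of 14 higher and 4 lower. In bulk liver RNA, a change in the number of cells of a type and a change in RNA per cell cannot be told apart, and the part of these markers in the results below was not tested.

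Among the 37 tested collagen genes, 20 were higher in DDC mice at an edgeR adjusted p under 0.05, where 30.2% of all 19535 tested genes were higher. Another 5 were lower, where the share over all genes was 26.6%, and 12 did not pass. Of the 20 higher genes, 19 exceeded the filter's cut-off in all controls and Col4a6 did not. All 20 were at least 2-fold higher, against 19.5% of all tested genes that were both called and 2-fold higher. In 25 of the 37 the CPM of the groups did not overlap, against 52.6% of all genes. The median log2 fold change was 1.72 over the 37 and 0.07 over all tested genes. The higher genes were spread over the fibrillar (5 of 10 tested), basement membrane (5 of 6), beaded (4 of 6), FACIT (4 of 6) and other (2 of 6) classes. Of the 3 tested transmembrane genes, 1 was lower and 2 did not pass. The plot of collagen genes by library shows each class.

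**Figure D1:**
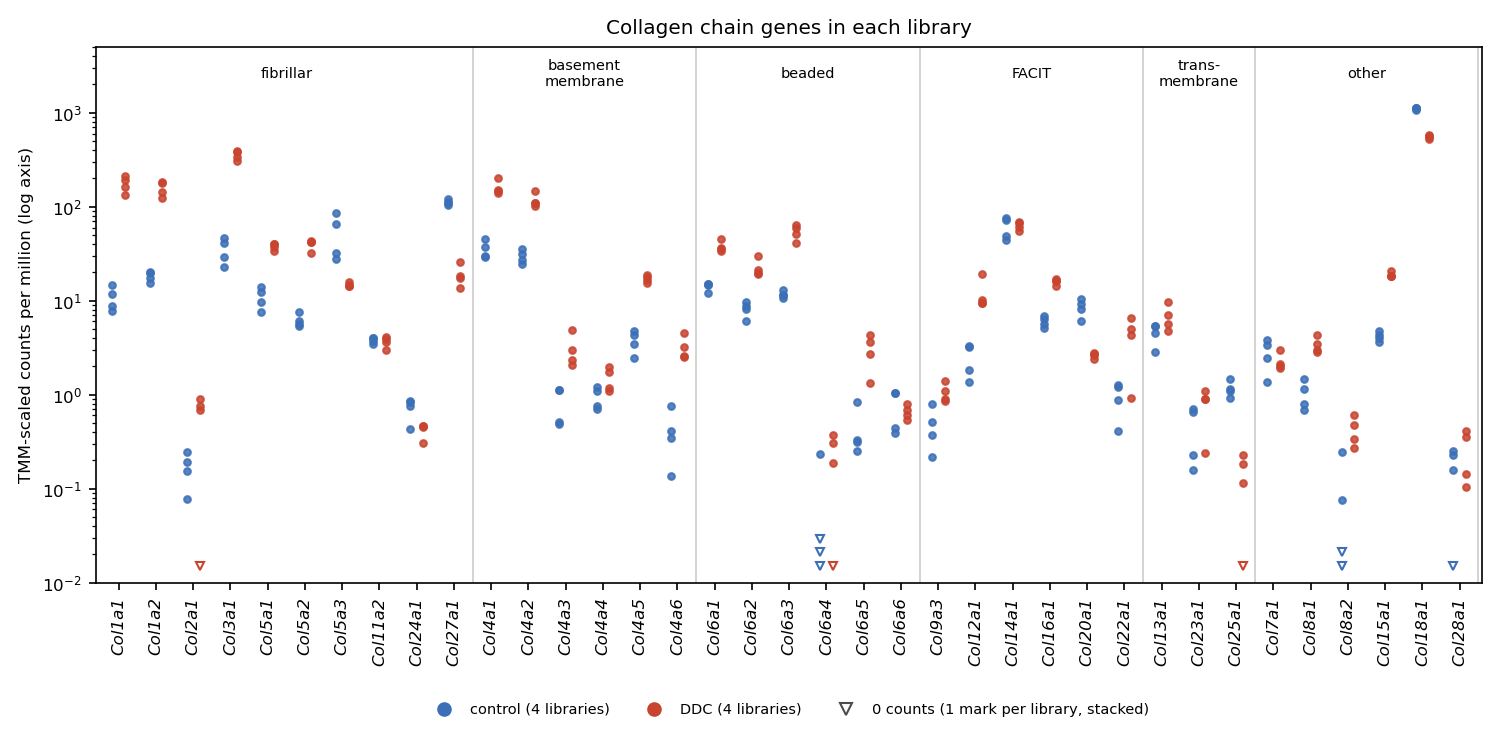
TMM-scaled CPM (log axis) of the 37 tested collagen genes, by class, with 1 point per library (blue, 4 controls; red, 4 DDC mice) and open triangles for libraries with 0 counts. Col1a1, Col1a2 and Col3a1 separate without overlap, at 16.2-fold, 8.72-fold and 10.2-fold higher, whereas Col5a3, Col27a1, Col20a1, Col25a1 and Col18a1 lie lower in DDC mice.

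Promoter sequences are shown for a pair of fibrillar genes that rose (Col3a1, Col5a1) and the pair that fell (Col5a3, Col27a1), so that chains of one class with opposite changes can be read side by side. Each is the 250 bases before the RefSeq gene start on GRCm38.p6, written 5′ to 3′ on the gene's strand. No base of the 4 windows lies in an annotated exon. The Col27a1 window lies inside the span that the deposited table gives the gene, which starts upstream of the RefSeq start. Capitals mark matches to either strand of 3 promoter motifs. The GC box was searched as GGGCGG and stands as its reverse complement where it lies on the other strand. The second motif was CCAAT. The last was TATAAA. The 3 words do not overlap in these windows.
Col3a1, plus strand, chr1:45311288-45311537: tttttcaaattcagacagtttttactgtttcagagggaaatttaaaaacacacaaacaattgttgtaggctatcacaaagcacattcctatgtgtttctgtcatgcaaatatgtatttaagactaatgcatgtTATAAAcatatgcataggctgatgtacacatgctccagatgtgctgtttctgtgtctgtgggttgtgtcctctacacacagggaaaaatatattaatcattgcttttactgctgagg
Col5a1, plus strand, chr2:27886175-27886424: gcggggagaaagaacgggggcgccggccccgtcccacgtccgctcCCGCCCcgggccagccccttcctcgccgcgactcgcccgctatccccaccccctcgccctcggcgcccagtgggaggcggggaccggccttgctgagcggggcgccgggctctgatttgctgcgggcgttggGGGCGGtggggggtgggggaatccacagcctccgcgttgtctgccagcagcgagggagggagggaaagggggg
Col5a3, minus strand, chr9:20815068-20815317: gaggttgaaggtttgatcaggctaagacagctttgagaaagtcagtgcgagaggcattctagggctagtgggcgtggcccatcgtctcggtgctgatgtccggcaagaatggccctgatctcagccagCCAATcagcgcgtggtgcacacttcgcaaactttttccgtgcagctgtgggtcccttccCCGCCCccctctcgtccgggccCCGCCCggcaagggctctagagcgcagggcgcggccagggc
Col27a1, plus strand, chr4:63215162-63215411: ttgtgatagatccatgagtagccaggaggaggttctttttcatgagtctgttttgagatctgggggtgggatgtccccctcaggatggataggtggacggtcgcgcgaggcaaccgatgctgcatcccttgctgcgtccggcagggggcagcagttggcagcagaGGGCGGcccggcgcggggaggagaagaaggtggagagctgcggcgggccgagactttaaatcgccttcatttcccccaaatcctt
Col3a1 holds TATAAA starting 117 bases before the start and no GC box, and the other three hold GC boxes and no TATAAA. Col5a3 also holds a CCAAT 122 bases before its start. Windows were found for 34 of the 43 genes, 37 windows in all. A GC box was present in 21 of the 37 (56.8%), against 32.7% of 32851 windows of the same length in the RefSeq table. CCAAT stood in 13 (35.1%, against 33.8%) and TATAAA in 5 (13.5%, against 12.4%). These matches describe letters in the windows and are not evidence of binding. GC boxes stood in windows of genes that rose (10 of 15 windows) and of genes that fell (4 of 6).

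Among the fibrillar collagens, the chains of types I and III and a pair of type V chains rose, while Col5a3 and Col27a1 fell. Col1a1, the alpha-1 chain of type I collagen (chromosome 11 from 94936224 to 94953042, plus strand, GRCm38), was measured at 11.9, 8.82, 14.5 and 7.74 CPM in controls 1 to 4 and 133, 162, 189.9 and 211 CPM in DDC mice 1 to 4. All DDC mice lay above all controls, with DDC mouse 4 highest. Col1a1 rose 16.2-fold (log2 fold change 4.02 with an SE of 0.24, edgeR adjusted p = 1.41e-06). Col1a2, the chain that joins it in type I collagen (chromosome 6 from 4504814 to 4541544, plus strand), was measured at 19.5, 17.3, 20.3 and 15.3 CPM in controls 1 to 4 and 125, 144, 179 and 184 CPM in DDC mice 1 to 4. It rose 8.72-fold (log2 fold change 3.12 with an SE of 0.15, edgeR adjusted p = 2.16e-07), again with no overlap. Col3a1, the chain of type III collagen (chromosome 1 from 45311538 to 45349706, plus strand), was measured at 41.3, 29.1, 46.2 and 22.9 CPM in controls 1 to 4 and 337, 304, 385 and 392 CPM in DDC mice 1 to 4. The groups were well apart and controls 2 and 4 were the lowest. Col3a1 rose 10.2-fold (log2 fold change 3.34 with an SE of 0.23, edgeR adjusted p = 3.07e-06).

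Col5a1 and Col5a2 encode the chains of type V collagen, which nucleates fibrils of type I. Col5a1 was measured at 12.4, 7.55, 14.04 and 9.62 CPM in controls 1 to 4 and 37.2, 33.8, 40.1 and 40.3 CPM in DDC mice 1 to 4 and rose 3.47-fold (edgeR adjusted p = 2.10e-05). Col5a2 was measured at 5.39, 7.64, 6.01 and 5.62 CPM in controls 1 to 4 and 41.6, 32.5, 42.2 and 42.9 CPM in DDC mice 1 to 4 and rose 6.45-fold (edgeR adjusted p = 2.92e-07). Both were separate between groups, and DDC mouse 2 was the lowest of its group for both. Col5a3, a further type V chain (chromosome 9 from 20770050 to 20815067, minus strand), was measured at 27.9, 66.02, 32.02 and 86.4 CPM in controls 1 to 4 and 14.3, 14.3, 14.5 and 15.7 CPM in DDC mice 1 to 4. Controls 2 and 4 were more than 2-fold above controls 1 and 3, while the DDC mice were close together and below every control. Col5a3 fell 3.61-fold (log2 fold change -1.85 with an SE of 0.36, edgeR adjusted p = 0.00291), and the SD of the controls was 28.0 CPM beside 0.689 CPM for the DDC mice.

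Col27a1, a fibrillar chain known from cartilage (chromosome 4 from 63214004 to 63333749, plus strand), was measured at 112, 109, 121 and 104 CPM in controls 1 to 4 and 25.6, 13.6, 18.2 and 17.5 CPM in DDC mice 1 to 4. Every DDC mouse was far below every control. It fell 5.95-fold (log2 fold change -2.57 with an SE of 0.17, edgeR adjusted p = 2.26e-06). Col2a1, the main cartilage collagen, was measured at 0.155, 0.0784, 0.1902 and 0.248 CPM in controls 1 to 4 and 0, 0.687, 0.898 and 0.749 CPM in DDC mice 1 to 4 and did not pass (edgeR adjusted p = 0.151). Without DDC mouse 1, the DDC mouse at 0, its log2 fold change was 2.18 (edgeR adjusted p = 0.00349). That fit leaves out the DDC mouse that went against the others, so it is given as a description. Over all settings run the adjusted p of Col2a1 ranged from 0.00349 to 0.745. Col11a2, a chain of type XI collagen, overlapped fully at 3.47 to 3.997 CPM in controls and 2.99 to 4.104 CPM in DDC mice (log2 fold change -0.05 with an SE of 0.16, edgeR adjusted p = 0.823). Its sign depends on scaling, since fitting on library totals gave 0.58 (edgeR adjusted p = 0.00919), and over all settings run its adjusted p ranged from 0.00919 to 1.0. Col24a1 lay at 0.431 to 0.856 CPM in controls and 0.308 to 0.467 CPM in DDC mice and did not pass (edgeR adjusted p = 0.107). Col11a1, which pairs with Col11a2, had 0 counts in every control and 149 in the DDC mice together, at least 28.3-fold higher against a floor of 3 counts over the 4 controls. It missed the count filter and was not tested.

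**Figure D2:**
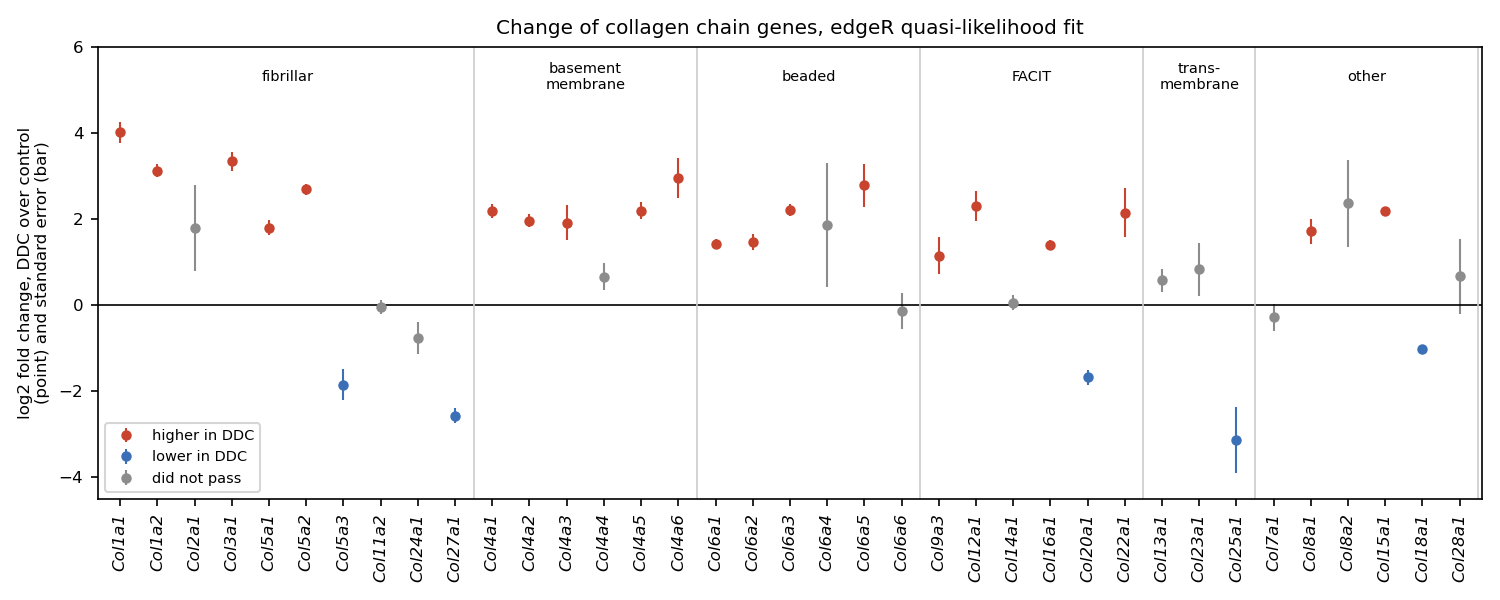
Log2 fold change, DDC over control, of the tested collagen genes by class, with the standard error as bars and colour for genes that passed the edgeR test in either direction or did not pass. Col1a1 stands highest at 4.02 and Col25a1, which passed the count filter only through the controls, lowest at -3.13, followed by Col27a1 at -2.57.

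All 6 basement membrane chains were tested and 5 rose. Col4a1 and Col4a2 encode the pair of chains found in nearly every basement membrane and start from facing ends on chromosome 8. Col4a1 was measured at 29.4, 45, 29.5 and 36.8 CPM in controls 1 to 4 and 204, 149.6, 139 and 148 CPM in DDC mice 1 to 4. DDC mouse 1 was well above the other DDC mice, which in turn were above every control. Col4a1 rose 4.56-fold (log2 fold change 2.19 with an SE of 0.17, edgeR adjusted p = 6.10e-06). Col4a2 was measured at 24.8, 35.5, 26.9 and 31.6 CPM in controls 1 to 4 and 147, 100.4, 108 and 109 CPM in DDC mice 1 to 4, with DDC mouse 1 again highest. It rose 3.91-fold (log2 fold change 1.97 with an SE of 0.15, edgeR adjusted p = 3.67e-06).

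The annotated ends of the Col4a1 and Col4a2 genes overlap by 22 bases, shown because every read there could belong to either gene when strand is not used. The sequence is written for the plus strand of GRCm38.
Col4a1 and Col4a2 shared bases, chr8:11312805-11312826: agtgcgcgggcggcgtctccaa
These bases make up 0.295% of the exonic length of Col4a1 and 0.332% of that of Col4a2.

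The chains of the specialised type IV networks were far less abundant. Col4a5 was measured at 3.43, 4.76, 2.45 and 4.36 CPM in controls 1 to 4 and 17.99, 15.5, 18.8 and 16.4 CPM in DDC mice 1 to 4, separate between groups, and rose 4.58-fold (edgeR adjusted p = 9.45e-06). Col4a6, its head-to-head neighbour on chromosome X with 1308 bases between the genes, was measured at 0.136, 0.764, 0.342 and 0.413 CPM in controls 1 to 4 and 3.2, 2.59, 4.53 and 2.54 CPM in DDC mice 1 to 4 and rose 7.75-fold (edgeR adjusted p = 0.000489), having passed the count filter only through the DDC mice. Both X-linked genes were higher in DDC mice, but because of that filter the rise of Col4a6 is given as a description. Control 2 was the highest control for each. Col4a3, a chain of the kidney glomerular network, was measured at 1.13, 0.4899, 0.514 and 1.12 CPM in controls 1 to 4 and 4.904, 2.31, 2.99 and 2.05 CPM in DDC mice 1 to 4 and rose 3.77-fold (edgeR adjusted p = 0.00285). Its exons share 563 bases (5.65%) with C430014B12Rik on the other strand, itself at a mean of 1.02 CPM in control and 0.278 CPM in DDC livers. Col4a4, which faces Col4a3 with 71 bases between them on chromosome 1, was measured at 0.757, 0.706, 1.103 and 1.22 CPM in controls 1 to 4 and 1.99, 1.09, 1.76 and 1.16 CPM in DDC mice 1 to 4. It overlapped between groups and did not pass (log2 fold change 0.66, edgeR adjusted p = 0.105), except with library totals alone (1.29, edgeR adjusted p = 0.00592) and in the log2 FPKM fits. For Col4a4, over all settings run its adjusted p ranged from 0.00592 to 0.426. Whether the changes of Col4a3 and Col4a4 differ from each other was not tested. Cholangiocyte and sinusoidal endothelial marker sums were higher in DDC mice too, as were those of macrophages and of portal fibroblasts and mesothelium. Sinusoidal markers were at 226 to 263 CPM in controls and 395 to 461 CPM in DDC mice, with 7 of 10 higher. Vascular endothelial markers were at 229 to 252 and 266 to 367 CPM, with 4 of 10 higher and DDC mouse 1 at the upper end. Their part in the type IV values was not tested.

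Type VI collagen is assembled mainly from Col6a1, Col6a2 and Col6a3, and all of them rose. Col6a1 was measured at 14.98, 14.95, 14.7 and 12.2 CPM in controls 1 to 4 and 34.04, 36.5, 35.6 and 45.7 CPM in DDC mice 1 to 4 and rose 2.67-fold (edgeR adjusted p = 4.09e-06). Col6a2, its neighbour on chromosome 10, lay at 6.11 to 9.603 CPM in controls and 19.2 to 30.05 CPM in DDC mice and rose 2.77-fold (edgeR adjusted p = 8.51e-05). Col6a3, the longest chain of the filament, was measured at 11.5, 10.6, 12.8 and 11.5 CPM in controls 1 to 4 and 40.9, 58.9, 51.6 and 63.04 CPM in DDC mice 1 to 4 and rose 4.62-fold (edgeR adjusted p = 8.01e-07). For these genes DDC mouse 1 was the lowest and DDC mouse 4 the highest of the DDC group, and no DDC mouse overlapped a control. The alternative chains Col6a4, Col6a5 and Col6a6 lie side by side on chromosome 9. Col6a5 was measured at 0.252, 0.314, 0.837 and 0.3304 CPM in controls 1 to 4 and 4.35, 1.31, 2.71 and 3.67 CPM in DDC mice 1 to 4, with control 3 apart from the other controls, and rose 6.91-fold (edgeR adjusted p = 0.00106). Col6a6 overlapped at 0.388 to 1.04 CPM in controls and 0.533 to 0.8001 CPM in DDC mice (edgeR adjusted p = 0.789). Col6a4 was listed at 0 in 3 controls and 1 DDC mouse and reached 0.369 CPM at most. It did not pass (edgeR adjusted p = 0.295). Without control 2, the only control with counts, the edgeR adjusted p was 0.0414. Every control left in that fit was at 0, so the value is given as a description. For Col6a4, over all settings run its adjusted p ranged from 0.0414 to 0.492.

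FACIT collagens bind the surface of fibrils and link them to other matrix. Of the 6 tested, 4 rose, 1 fell and 1 did not pass. Col12a1, which decorates type I fibrils, was measured at 1.38, 3.29, 1.81 and 3.24 CPM in controls 1 to 4 and 19.1, 9.33, 9.53 and 10.1 CPM in DDC mice 1 to 4, with DDC mouse 1 well above the others, and rose 4.94-fold (edgeR adjusted p = 0.000429). Col16a1 lay at 5.12 to 6.91 CPM in controls and 14.2 to 16.96 CPM in DDC mice and rose 2.64-fold (edgeR adjusted p = 5.56e-06). Col14a1, the second collagen by FPKM in controls, was measured at 76.6, 43.8, 72.5 and 48.7 CPM in controls 1 to 4 and 55.6, 68.6, 61.01 and 66.6 CPM in DDC mice 1 to 4. The DDC mice lay inside the range of the controls, among which 1 and 3 were high and 2 and 4 low. Col14a1 did not pass (log2 fold change 0.06 with an SE of 0.18, edgeR adjusted p = 0.791), while scaling by library totals gave 0.68 (edgeR adjusted p = 0.00835), and over all settings run its adjusted p ranged from 0.00776 to 1.0. Col22a1, a chain known from tissue junctions, was measured at 1.203, 0.412, 0.875 and 1.28 CPM in controls 1 to 4 and 0.929, 4.34, 4.97 and 6.52 CPM in DDC mice 1 to 4. DDC mouse 1 lay among the controls and the other 3 DDC mice above them. Its rise of 4.44-fold passed (edgeR adjusted p = 0.00951) but not with limma voom (adjusted p = 0.114), and over all settings run its adjusted p ranged from 8.07e-05 to 0.114.

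Col9a3, a type IX chain, lay at 0.216 to 0.799 CPM in controls and 0.847 to 1.38 CPM in DDC mice and passed narrowly at 2.22-fold higher (edgeR adjusted p = 0.0429). It lost the call on leaving out controls 1, 2 or 4 or DDC mice 2, 3 or 4, with edgeR adjusted p-values of 0.0564 to 0.109. Its exons share 234 bases (6.07%) with Tcfl5 on the other strand, which had means of 1.02 CPM in controls and 2.68 CPM in DDC mice. Col20a1 (chromosome 2 from 180986535 to 181017714, plus strand) was the one FACIT gene that fell. It was measured at 8.09, 9.13, 10.5 and 6.13 CPM in controls 1 to 4 and 2.65, 2.39, 2.79 and 2.73 CPM in DDC mice 1 to 4, all DDC mice below all controls. It fell 3.205-fold (log2 fold change -1.68 with an SE of 0.18, edgeR adjusted p = 3.19e-05). An annotated transcript on the same strand, BX649560.1, shares 79 of its exonic bases (1.54%). Col9a1 and Col19a1 had 0 counts in every control. In DDC mice 1 to 4 Col9a1 had 0, 0, 24 and 11 counts and Col19a1 had 0, 8, 6 and 0. Pooled over the DDC mice, at 35 and 14 counts, they were at least 6.64-fold and 2.66-fold higher against the floor of 3 counts. Neither was tested.

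Transmembrane collagens are anchored in the cell surface. Col13a1 was measured at 4.48, 5.41, 5.36 and 2.83 CPM in controls 1 to 4 and 9.601, 4.79, 5.63 and 6.95 CPM in DDC mice 1 to 4, overlapping between groups, with DDC mouse 1 highest (edgeR adjusted p = 0.0898). Scaled by library totals it passed, at 1.19 on the log2 scale (edgeR adjusted p = 0.00339), and over all settings run its adjusted p ranged from 0.00339 to 0.528. Col25a1, a neuronal collagen (chromosome 3 from 130131501 to 130596321, plus strand), was measured at 1.46, 0.921, 1.103 and 1.16 CPM in controls 1 to 4 and 0.181, 0, 0.116 and 0.228 CPM in DDC mice 1 to 4. Every DDC mouse was below every control, on 236 counts in the controls and 47 in the DDC mice. It fell (log2 fold change -3.13 with an SE of 0.77, edgeR adjusted p = 0.00665), but as it passed the count filter only through the controls this is given as a description. Col23a1 lay at 0.157 to 0.702 CPM in controls and 0.237 to 1.097 CPM in DDC mice and did not pass (edgeR adjusted p = 0.271). Col17a1, the anchoring collagen of epithelial hemidesmosomes, had 0 counts in every control and 31, 0, 53 and 23 counts in DDC mice 1 to 4. Pooled, these 107 counts were at least 20.3-fold higher against the floor. Col17a1 was not tested.

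Among the other chains, Col18a1 (chromosome 10 from 77052178 to 77166548, minus strand) was the most abundant collagen gene of both groups. It was measured at 1110.1, 1127, 1073 and 1120.2 CPM in controls 1 to 4 and 521, 573, 550.0 and 559.7 CPM in DDC mice 1 to 4, with little spread inside either group. It fell 2.01-fold (log2 fold change -1.01 with an SE of 0.06, edgeR adjusted p = 6.32e-07). Scaled by library totals the change was -0.38 on the log2 scale (edgeR adjusted p = 0.000238), so its direction held and its size depended on scaling. The hepatocyte markers fell beside it, by a median of -1.23 on the log2 scale, and their part in its fall was not tested. Col15a1, its close relative in vessel and duct basement membranes, was measured at 4.29, 3.96, 4.78 and 3.63 CPM in controls 1 to 4 and 18.5, 18.5, 18.5 and 20.5 CPM in DDC mice 1 to 4 and rose 4.56-fold (edgeR adjusted p = 2.23e-07). The 2 multiplexins, Col15a1 and Col18a1, had opposite directions in the same livers.

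Col8a1, a network-forming chain of vessel walls, was measured at 1.14, 0.804, 0.685 and 1.47 CPM in controls 1 to 4 and 3.43, 2.95, 4.299 and 2.81 CPM in DDC mice 1 to 4 and rose 3.29-fold (edgeR adjusted p = 0.000754). Its partner Col8a2 lay at 0 to 0.248 CPM in controls and 0.2705 to 0.608 CPM in DDC mice and did not pass (edgeR adjusted p = 0.06999). It did pass without control 4 (edgeR adjusted p = 0.0151), with DESeq2 (adjusted p = 0.0444) and with limma voom (adjusted p = 0.0198). Over all settings run the adjusted p of Col8a2 ranged from 0.00285 to 0.163. It passed the count filter only through the DDC mice, so these results are given as a description. Col7a1, the anchoring fibril chain, lay at 1.36 to 3.78 CPM in controls and 1.91 to 2.99 CPM in DDC mice (edgeR adjusted p = 0.473), and Col28a1 at 0 to 0.252 CPM in controls and 0.103 to 0.413 CPM in DDC mice (edgeR adjusted p = 0.533). Col26a1 had 0 counts in the controls and 0, 0, 37 and 32 counts in DDC mice 1 to 4. Pooled, these 69 counts were at least 13.1-fold higher against the floor. Col10a1, the growth plate collagen, had 4 counts in all, each in control 2. Neither was tested.

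The makeup of collagen RNA differed between groups. Per length, the 43 genes together came to 165 ± 3.45 FPKM in controls and 292 ± 19.5 FPKM in DDC mice (SD, n = 4 each), and to 0.125 ± 0.00223% and 0.236 ± 0.0172% of all counts. Both of these totals rest on library totals without TMM scaling. The TMM factors were 0.792 to 0.815 in controls and 1.21 to 1.27 in DDC mice, so on the TMM scale the difference is smaller. Col18a1 made up 74.3 ± 0.725% of collagen FPKM in controls and 32.2 ± 1.96% in DDC mice. Fibrillar chains held 12.0 ± 0.887% and 36.02 ± 3.21%, and type IV chains 4.69 ± 0.806% and 17.4 ± 3.33%. DDC mouse 1 had 22.4% of its collagen FPKM in type IV chains and the other DDC mice 15.2 to 16.4%. Beaded chains went from 2.50 ± 0.232% to 6.65 ± 0.790%, with no overlap, whereas FACIT chains stayed within overlapping ranges at 5.43 ± 1.30% and 5.48 ± 0.304%. These shares sum to a fixed total and were not tested.

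**Figure D3:**
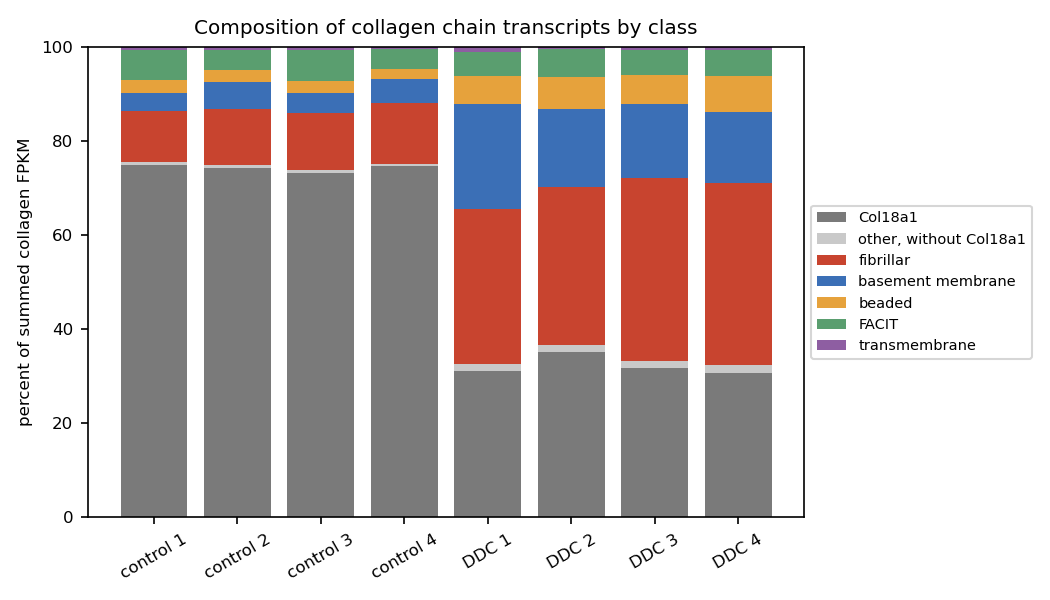
Share of the summed collagen FPKM held by each class in each of the 8 libraries, with Col18a1 shown apart from the other chains. Col18a1 fills 73.3 to 74.9% of the control bars and 30.8 to 35.1% of the DDC bars, and fibrillar chains fill 10.9 to 13.0% of the former and 32.8 to 38.8% of the latter.

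The order of the genes by FPKM changed with it. In controls Col18a1 (123 ± 2.85 FPKM, SD, n = 4) was followed by Col14a1 (6.705 ± 1.85), Col27a1 (6.66 ± 0.483) and Col5a3 (6.05 ± 3.14), then by Col4a1 (3.67 ± 0.796) and Col4a2 (3.49 ± 0.577). Neighbours in this order after Col18a1 overlapped in mean ± SD. In DDC mice Col18a1 (93.7 ± 4.29 FPKM) was followed by Col3a1 (43.2 ± 5.96), Col1a1 (31.7 ± 6.69), Col4a1 (25.6 ± 4.43), Col4a2 (20.9 ± 3.61) and Col1a2 (15.2 ± 3.01). Here too each neighbouring pair after Col18a1 overlapped in mean ± SD. Within every DDC library, however, Col3a1 lay above Col1a1, Col4a1 above Col4a2 and Col4a2 above Col1a2. Col1a1 and Col4a1 changed places between libraries, so their order is not resolved. The order of genes was not tested. Col27a1 and Col5a3, which ranked 3 and 4 in controls, ranked 17 and 16 in DDC mice.

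Chains that assemble into a single molecule were compared as ratios of FPKM within each library, which no library scaling affects. Most type I collagen holds more Col1a1 than Col1a2 chain. The Col1a1/Col1a2 ratio was 1.15, 0.965, 1.36 and 0.960 in controls 1 to 4 and 2.02, 2.12, 2.01 and 2.17 in DDC mice 1 to 4. Every DDC mouse was above every control, a log2 difference of 0.92 (exact two-sided permutation test over 70 assignments, p = 0.0286, the smallest possible; adjusted over 5 ratios, 0.0476). Col4a1/Col4a2 was 1.05, 1.12, 0.973 and 1.03 in controls and 1.23, 1.32, 1.14 and 1.21 in DDC mice, a smaller step with no overlap (log2 difference 0.23, exact permutation adjusted p = 0.0476). Col3a1/Col1a1, which sets type III beside type I, was 2.33, 2.22, 2.13 and 1.99 in controls and 1.69, 1.26, 1.355 and 1.24 in DDC mice. It was lower in every DDC mouse (log2 difference -0.65, exact permutation adjusted p = 0.0476). The direction of these 3 ratios held on leaving out any library. Their adjusted exact permutation p rose to between 0.0714 and 0.0952 without control 1, 3 or 4 or DDC mouse 1, 2 or 4. For Col3a1/Col1a1 it also rose without control 2. With 1 library left out there are fewer assignments and the test is coarser. The groups still did not overlap in any of these 3 ratios. The rise in p therefore cannot tell dependence on 1 mouse from the coarser test. With 1 FPKM added to both chains Col3a1/Col1a1 lost its call (log2 difference -0.27, exact permutation adjusted p = 0.107).

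Col5a1/Col5a2 was 2.58, 1.11, 2.63 and 1.93 in controls and 1.00, 1.17, 1.07 and 1.05 in DDC mice. Control 2 lay among the DDC mice, and the difference did not pass (log2 difference -0.87, exact permutation adjusted p = 0.0714). Without control 2 it was -1.14 (exact permutation adjusted p = 0.0476). Control 2 also carried the highest cholangiocyte (231 CPM) and smooth muscle (281 CPM) marker sums of the controls, whose part in this ratio was not tested. Col6a1/Col6a2 overlapped between groups, at a mean of 3.37 ± 0.349 in controls and 3.24 ± 0.238 in DDC mice (SD, n = 4; log2 difference -0.05, exact permutation p = 0.543). With 1 FPKM added to both chains its difference turned to 0.43 and passed (exact permutation adjusted p = 0.0476). Col6a2 had a mean of 0.759 FPKM in controls and 3.24 FPKM in DDC mice, so the addition lowers the control ratio more than the DDC ratio. The level of a ratio rests on the gene lengths behind the deposited FPKM, which differed by at most 0.640% (CV) between libraries for the 20 collagen genes with 100 counts in every library.

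**Figure D4:**
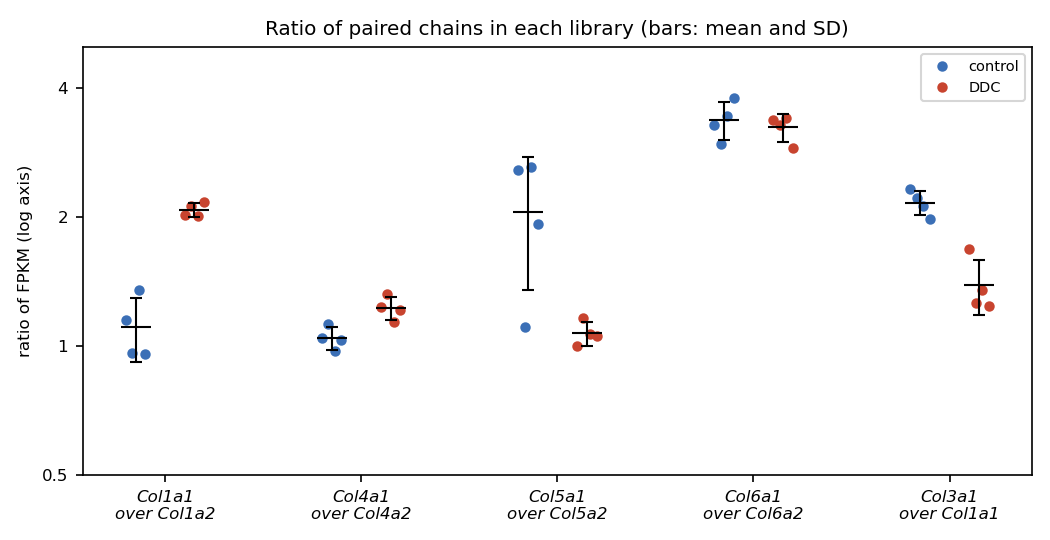
Ratio of the FPKM of a pair of collagen chains in each library, with controls in blue, DDC mice in red and group means as lines. Col1a1/Col1a2 lies at 0.960 to 1.36 in controls and 2.01 to 2.17 in DDC mice, and Col6a1/Col6a2 overlaps.

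Libraries of the DDC group differed in which collagens were high. Among the 20 collagen genes called higher, DDC mouse 4 had the highest CPM in 10, including Col1a1, Col1a2, Col3a1 and the 3 main type VI chains. DDC mouse 1 had the highest in 6, including Col4a1, Col4a2 and Col12a1, and the lowest in 6, including Col1a1, Col1a2 and the main type VI chains. DDC mouse 2 had the lowest in 8. Skeletal muscle markers were at 42.4 CPM in DDC mouse 1, 6.97 to 7.39 CPM in the other DDC mice and 29.0 to 58.9 CPM in the controls, and their part in these orders was not tested. Without DDC mouse 1, Col12a1 kept a log2 fold change of 1.97 and Col4a3 one of 1.58.

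Genes outside the family that make, bind, sense or degrade collagen were read from 7 lists. As for the collagen genes, counts of called genes describe the genes that passed the count filter and support nothing more. Of 96 tested genes, 51 were higher, 19 lower and 26 did not pass, and the median log2 fold change was 0.83, where over all tested genes 30.2% were higher, 26.6% were lower and the median was 0.07. Under library totals as the scale, the split was 78 higher and 7 lower, so the direction of the small changes among them depends on scaling. Of 24 genes for chain modification, folding and export, 7 rose (29.2%, close to the share over all genes) and 10 fell. Under library totals 17 of these 24 were higher and 4 lower, so the balance of this list turns with the scale. Fkbp10, a collagen prolyl isomerase, rose 4.17-fold (edgeR adjusted p = 0.000139). Plod2, a lysyl hydroxylase, rose 3.72-fold (edgeR adjusted p = 4.36e-05), and Crtap and P3h3 of the prolyl 3-hydroxylase machinery rose 2.72-fold and 2.38-fold. Mia3, which loads procollagen at endoplasmic reticulum exit sites, fell 2.08-fold (edgeR adjusted p = 7.40e-06). Of 8 propeptide processing genes, 3 rose (37.5%) and 1 fell, and without DDC mouse 3 the number lower was 2. Adamts2, the amino-propeptidase, rose 4.59-fold and Pcolce, an enhancer of carboxy-propeptide removal, 2.09-fold, while Bmp1, the carboxy-propeptidase, fell 1.63-fold (edgeR adjusted p = 9.39e-05). Mep1a, a meprin, was at 0 to 0.0761 CPM in controls and 0.662 to 3.07 CPM in DDC mice. It is among the genes that rose, but passed the count filter only through the DDC mice, with 4 counts in the controls together.

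Cross-linking enzymes rose in 5 of 6 tested genes (83.3%). Lox, Loxl1 and Loxl2, the lysyl oxidases that join collagen chains, rose 8.85-fold, 7.35-fold and 5.05-fold (edgeR adjusted p = 5.35e-06, 2.21e-06 and 5.31e-08). Tgm2, a transglutaminase, lay at 85.3 to 101 CPM in controls and 350.4 to 435 CPM in DDC mice and rose 4.39-fold. Of 15 matrix proteins that bind collagen, 11 rose (73.3%) and the other 4 did not pass, and without DDC mouse 1 the list had 1 lower gene. Thbs1, a matricellular glycoprotein, rose 13.6-fold, Nid1, which joins type IV collagen to laminin, 9.56-fold, Lum, a fibril-spacing proteoglycan, 4.12-fold, and Sparc, a collagen chaperone, 4.02-fold.

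Of 12 collagen receptor genes, 8 rose (66.7%) and 1 fell. Ddr1, the discoidin receptor of epithelia, rose 7.82-fold (edgeR adjusted p = 7.63e-07). Lair1, an inhibitory receptor of immune cells, rose 7.51-fold, the integrin subunit Itga2 6.34-fold and Cd44, mainly a hyaluronan receptor, 5.99-fold, whereas Itga10, another integrin subunit, fell 2.62-fold. Of 13 degradation genes, 8 rose (61.5%) and 2 fell, with 1 lower when DDC mouse 3 or 4 was left out. The collagenase Mmp13 lay at 0.0826 to 0.304 CPM in controls and 3.59 to 5.77 CPM in DDC mice. It rose 20.7-fold (edgeR adjusted p = 1.17e-05), on 42 counts in the controls together. Not every control was above the filter's cut-off for Mmp13, so its rise is given as a description. The gelatinases Mmp9 and Mmp2 rose 6.45-fold and 6.37-fold, and the cathepsin Ctsk 6.17-fold. Prodh, which breaks down proline, fell 2.05-fold. Of 18 TGF-beta and transcription genes, 9 rose (50.0%) and 5 fell, against 14 higher and 1 lower under library totals. Of the ligands, Tgfb2 rose 13.7-fold, Tgfb3 5.09-fold and Tgfb1 4.52-fold, while Cebpb, a transcription factor abundant in hepatocytes, fell 2.73-fold (edgeR adjusted p = 1.65e-06). Genes for making and for degrading collagen thus both held members that rose, as the plot of these genes by list shows.

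**Figure D5:**
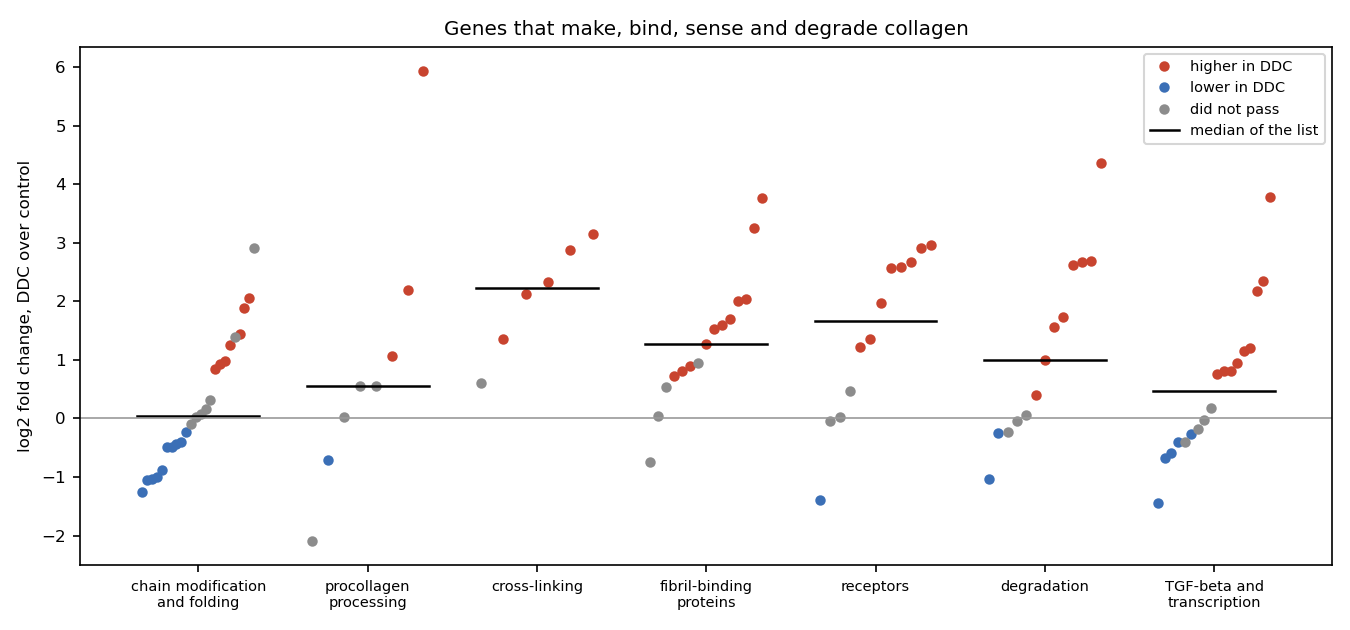
Log2 fold change, DDC over control, of the 96 tested genes of the 7 lists, 1 point per gene, coloured by whether it passed the edgeR test, with the list median as a black line. Cross-linking genes have the highest list median, 2.23, and the chain modification and folding list has the lowest, 0.05.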

How the data were processed

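Liver RNA of 8 mice was sequenced after poly(A) selection with dUTP second strands, per the labels' protocols. The deposited gene counts are the authors' whole-number, unnormalized counts for 55401 genes. The deposited FPKM values for 33467 genes were scaled by the authors for length and library total. Tools named in the submitters' processing notes are cutadapt, FastQC, HISAT2, StringTie and DESeq2, on GRCm38 and mm10. The sources used here do not say whether reads were counted by strand.

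Counts of all 8 libraries were fitted with edgeR 4.0.16 (R 4.3.3), using TMM, filterByExpr and robust quasi-likelihood tests, with Benjamini-Hochberg adjustment over 19535 genes, two-sided, at 0.05. Library totals were 61179103 to 81664058 counts, and intervals or floors of 3 counts cover counting error only. SE is that of the log2 fold change. P-values measure the spread between mice. Chain ratios were tested by exact permutation. Alternatives were DESeq2 1.42.0, limma 3.58.1 voom, log2 FPKM with 0.1 or 1 added, other scalings and filters, a fold 1.5 test, a replicate block and leaving out each library. Counts simulated for the same groups and library totals (19821 genes tested) gave 129 calls, of which 7 were false. The 1.5-fold rises were found for 9 of 50 genes, the 2-fold ones for 30 of 50 and the 4-fold ones for 50 of 50. The 2-fold falls were found for 33 of 49. Few genes were changed there and every gene had the same spread, whereas 56.8% of genes were called in these data. The simulation therefore cannot give the rate of false or missed calls in the comparison of DDC and control mice.

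The members, the other gene lists and the tests were chosen with earlier results of these data known. Every collagen row is accounted for. From each other list the rule takes up to 4 called genes with the largest change at 1 CPM or more, and the largest called gene that moved against the list median. Exon overlaps come from GENCODE M21 and promoters from RefSeq on GRCm38.p6.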

Additional observations from a re-analysis of the deposited data

Results flagged for a closer look

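Groups of 4 mice were searched for a single library far from the other 3, by the gap to its nearest neighbour over the range of the group. This marked 13 of 130 groups, where chance alone marks about 1 in 20. In DDC mouse 1, Col4a1 was 204 CPM against 139 to 149.6 in the other DDC mice, Col12a1 was 19.1 against 9.33 to 10.1 CPM, the type IV share of collagen FPKM was 22.4% against 15.2 to 16.4%, and the skeletal muscle marker sum was 42.4 against 6.97 to 7.39 CPM. In DDC mouse 2, Col5a2 was 32.5 against 41.6 to 42.9 CPM and Col24a1 was 0.308 against 0.454 to 0.467 CPM. In DDC mouse 4, Col15a1 was 20.5 against 18.5 CPM in each of the others.

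Among the controls, control 2 stood apart in the cholangiocyte marker sum, 231 against 74.3 to 83.5 CPM, in the summed cross-linking genes, 111 against 96.1 to 98.4 CPM, and in Col6a4, 0.235 CPM against 0 in the others. Control 3 stood apart in Col6a5, 0.837 against 0.252 to 0.330 CPM. Control 4 was low in Col6a1, 12.2 against 14.7 to 14.98 CPM, and in the beaded share of collagen FPKM, 2.15% against 2.60 to 2.65%.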

How the results depend on the processing

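Of the 25 collagen genes that passed, 23 kept their call and direction in every setting run. The exceptions were Col22a1, lost with limma voom, and Col9a3, lost in 9 settings. Over the settings 19 to 26 collagen genes were higher and 4 to 5 lower. With library totals alone the median of all genes moved from 0.07 to 0.70 on the log2 scale, and 11505 genes were higher and 1750 lower, while 78 of the collagen-handling genes were higher and 7 lower. The log2 FPKM fits, which also use library totals, gave 11976 higher and 1826 lower genes with 0.1 added and 11987 and 1815 with 1 added, and 77 and 7 handling genes in both. The fold 1.5 test asks for more and called 3316 genes higher and 2120 lower, with 7 handling genes lower. Col11a2 turned to 0.58 with library totals, 0.47 with 0.1 FPKM added and 0.19 with 1 FPKM added. With 1 FPKM added to both chains Col6a1/Col6a2 turned to 0.43 (exact permutation adjusted p = 0.0476) and Col3a1/Col1a1 shrank to -0.27 (exact permutation adjusted p = 0.107). The control means of Col6a2 (0.759 FPKM) and Col1a1 (1.27 FPKM) are near the 1 FPKM added, so the addition lowers both control ratios more than the DDC ratios. By summed counts in place of FPKM, fibrillar chains held 16.1% in controls and 42.0% in DDC mice and Col18a1 71.1% and 29.0%.

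Leaving out 1 library in turn, Col1a1/Col1a2 ranged from 0.86 to 1.03, Col4a1/Col4a2 from 0.20 to 0.27, Col3a1/Col1a1 from -0.75 to -0.60, Col5a1/Col5a2 from -1.14 to -0.72 and Col6a1/Col6a2 from -0.11 to 0.01. No pairing by replicate number was seen. Same-numbered mice had correlations of -0.26, -0.23, 0.03 and -0.08 of their deviations from the group means, and differently numbered mice -0.15 to 0.23. So few values cannot exclude a shared cage, litter or day, which the labels do not state. With the replicate block, 19 collagen genes were higher and 5 lower, and the ratios Col1a1/Col1a2 (0.92), Col4a1/Col4a2 (0.23) and Col3a1/Col1a1 (-0.65) had an exact permutation adjusted p of 0.208. That test could not pass, since 4 blocks give 16 sign assignments and a smallest p of 0.125. Genes under the count filter were left out of the main fit. They can enter the numbers of collagen genes called in the fits run without that filter, and their own results there are not given.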

Other observations

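The controls fell into different orders for different collagens. Among the 35 collagen genes with a control mean of at least 0.1 CPM, controls 1 and 3 were the highest pair for 10, including Col1a1, Col1a2, Col3a1, Col5a1 and Col14a1. Controls 2 and 4 were the highest pair for 8, including Col4a1, Col4a2, Col4a5, Col4a6, Col5a3 and Col18a1. No test was made of these orders. Gas1, on the list of portal fibroblast and mesothelial markers, fell while 10 of the 17 tested genes of that list rose, from a range of 9.31 to 13.9 CPM in controls to 1.59 to 2.73 CPM in DDC mice. Of 14 stellate cell markers, 4 rose and 4 fell. Pdgfrb, the receptor for platelet-derived growth factor, rose 3.43-fold and Angptl6 fell 2.92-fold.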
